A study of Mus musculus with 2 samples.

Results

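The genes described here are 40 cell cycle genes: mitotic kinases and their partners, cyclins, cyclin-dependent kinases, inhibitors of those kinases, retinoblastoma-family proteins, E2F transcription factors and replication genes. They were given as a list of symbols with no threshold on a measured value, and each was matched by its symbol to 1 gene in GENCODE M21, giving 40 of 55536 annotated genes. By role, 14 are mitotic, 13 belong to G1 and quiescence, 7 to the G1/S transition and 6 to DNA replication. RNA came from the whole adrenal gland of 2 male B6CASTF1/J mice, F1 hybrids of C57BL/6J and CAST/EiJ parents, aged 8 to 10 months. Both animals form 1 group, with no treatment, second genotype or second age, so the comparisons are between groups of genes within each gland and between replicate 2 and replicate 1.

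Cells commit to division in G1, when D-type cyclins bind Cdk4 or Cdk6 and phosphorylate the retinoblastoma-family proteins, which releases E2F factors and lets cyclin E, Cdk2 and the replication genes come on. INK4 proteins block Cdk4 and Cdk6, Cdkn1b (p27) blocks cyclin-Cdk2, and in resting cells the retinoblastoma-like protein Rbl2 (p130) with E2f4 forms the DREAM complex on the promoters of cell cycle genes. The genes of G2 and mitosis are transcribed in dividing cells and their RNA is low in resting ones, and in the adult adrenal cortex divisions are thought to occur mainly among cells of the outer zones.

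Levels are deposited TPM, a scale of relative transcript abundance that divides reads by transcript length and so allows genes to be compared. Libraries held 29994901 and 33987434 expected counts on annotated genes, and 14544 and 14731 genes reached 1 TPM. Nuclear protein-coding genes took only 36.6% and 38.2% of the TPM, so a value within coding genes alone is 2.73 and 2.62 times the one printed. The tissue label held: 7 of 7 adrenal cortex markers were detected, with a summed 21459 TPM in replicate 1 and 18099 in replicate 2, and 7 of 7 chromaffin markers, with 3177 and 2280. Fat was unevenly present, since 7 adipocyte markers summed to 224 TPM in replicate 1 and 1955 in replicate 2.

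Mitotic genes were low in both glands and G1 and quiescence genes were abundant. At a threshold of 1 TPM in both libraries, 1 of 14 mitotic genes was detected against 13 of 13 G1 and quiescence genes, 6 of 6 replication genes and 5 of 7 G1/S genes. Among all 22015 nuclear protein-coding genes, 56.3% were detected, so the mitotic share of 7.14% lay below that level. This count depends on the scale: with TPM rescaled to sum over nuclear protein-coding genes alone, 9 of 14 mitotic genes reached 1 TPM in both libraries, near the 61.7% of all coding genes that did. The median mitotic gene had 0.520 TPM in replicate 1 and 0.850 in replicate 2 (0.685 ± 0.233, SD, n = 2), and the median G1 and quiescence gene had 12.2 and 16.4 (14.3 ± 2.95, SD, n = 2). The ratio of these medians was 23.4 in replicate 1 and 19.2 in replicate 2 (21.3 ± 2.96, SD, n = 2). The groups did not overlap in either gland, as the lowest G1 and quiescence gene exceeded the highest mitotic gene 5.26-fold in replicate 1 and 2.84-fold in replicate 2. Because these are bulk samples, fewer cells with a transcript and less of it per cell cannot be told apart. With 2 animals the smallest two-sided p of an exact paired permutation is 0.5, so these ratios are given as descriptions without a test.

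**Figure D1:**
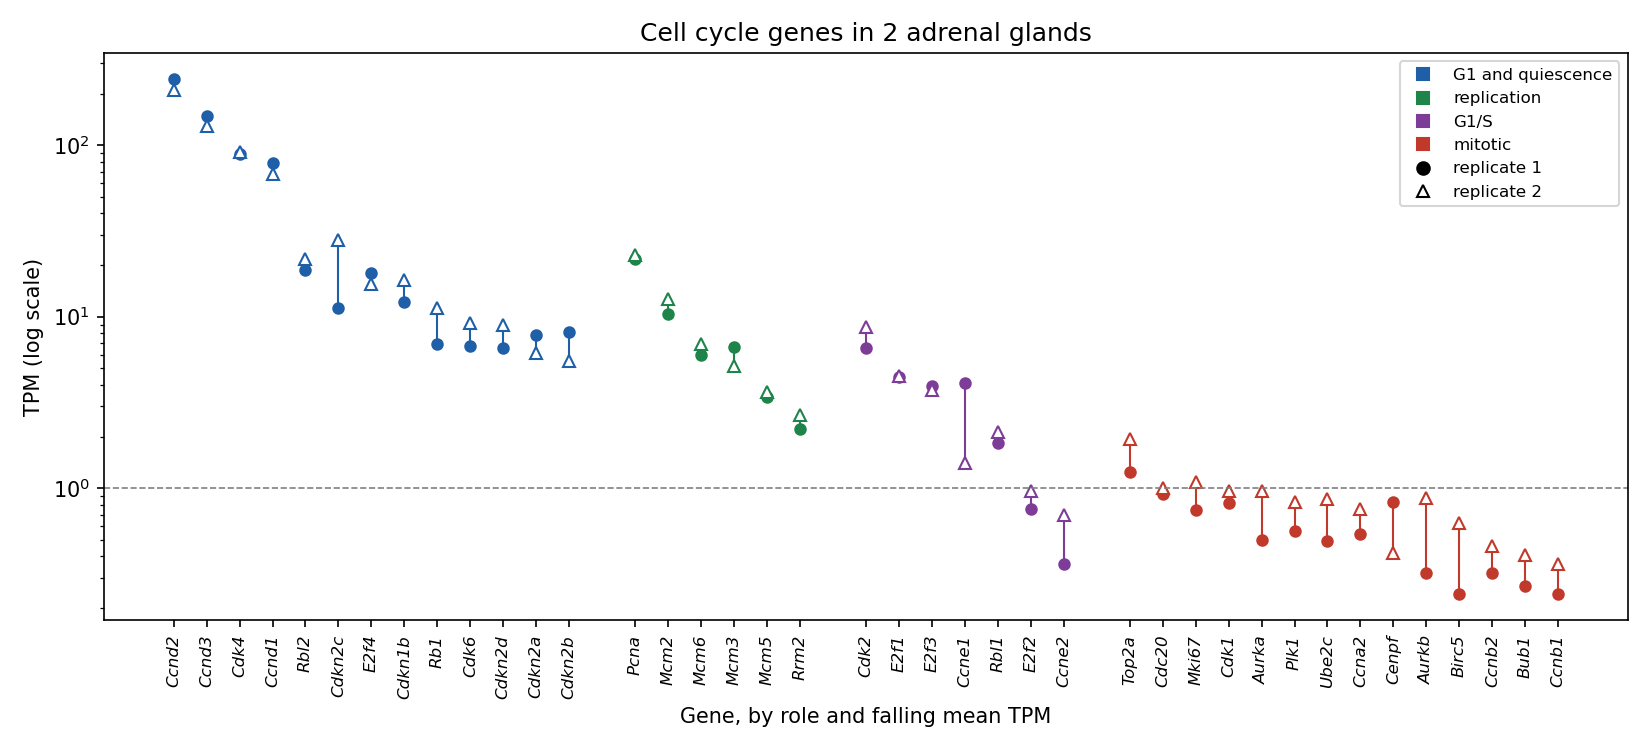
TPM on a log axis for each of the 40 cell cycle genes, with circles for replicate 1, open triangles for replicate 2 and colours for the 4 roles. The dashed line is 1 TPM, and Top2a is the 1 mitotic gene with both points above it.

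The mitotic genes include the kinases that start mitosis and drive the spindle. Mki67, the proliferation antigen that coats mitotic chromosomes, had 0.750 TPM in replicate 1 and 1.09 in replicate 2, from 210 and 327 counts. Top2a, the topoisomerase that untangles sister chromosomes, was the highest at 1.25 and 1.93 TPM over all its transcripts. Its transcript with a CCDS identifier (an agreed coding sequence) had 0.580 and 0.910 TPM, below Mki67 in both animals. Cdk1, the kinase that triggers mitosis, had 0.820 and 0.960 TPM from 18 and 33 counts. These 3 classic division markers were thus present in both animals, at or near 1 TPM.

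The cyclins that activate Cdk1 and Cdk2 in S phase and mitosis were lower still. Ccna2 (cyclin A2) had 0.540 and 0.760 TPM, from 32 and 58 counts. Ccnb1 (cyclin B1) was the lowest of all 40 genes by mean TPM, with 0.240 in replicate 1 and 0.360 in replicate 2, and Ccnb2 (cyclin B2) had 0.320 and 0.460. Summed, the 3 D cyclins stood 429-fold above these 3 mitotic cyclins in replicate 1 and 258-fold above them in replicate 2.

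Among the remaining mitotic genes, the kinases Plk1, Aurka, Aurkb and Bub1 ranged from 0.270 to 0.560 TPM in replicate 1 and from 0.410 to 0.960 in replicate 2. Birc5 (survivin), which works with Aurkb on the centromere, had 0.240 and 0.630 TPM from 9 and 21 counts. Cdc20 and Ube2c, an activator and the ubiquitin-conjugating enzyme of the anaphase-promoting complex, had 0.930 and 1.00 TPM and 0.490 and 0.870 TPM. Cdc20 thus lay at the detection threshold itself in replicate 2. It overlaps Elovl1 on the other strand, at 32.9 and 27.4 TPM. The kit keeps strand, per the labels, but the strand setting of the counting is not given in the sources used here.

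Cenpf, a kinetochore protein, showed how low counts move TPM. Its gene-level TPM was 0.830 in replicate 1 and 0.420 in replicate 2, whereas its counts were higher in replicate 2, at 61 and 103. The short transcript Cenpf-202 received 4.14 counts in replicate 1 and 0.330 in replicate 2, which became 0.570 and 0.0400 TPM. The full-length coding transcript Cenpf-204 held 51.8 and 99.9 counts and 0.170 and 0.30 TPM. For Cenpf the order of the 2 animals therefore depended on whether counts, the long transcript or the summed TPM was read.

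Mitotic genes lay between the 35.5 and the 45.2 percentile of 22015 nuclear protein-coding genes by mean TPM, and G1 and quiescence genes between the 60.4 and the 99.2 percentile. Replication genes spanned 48.7 to 82.2, and G1/S genes spanned 38.4 to 62.0. The last range overlaps that of the mitotic genes, through Ccne2 and E2f2.

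**Figure D2:**
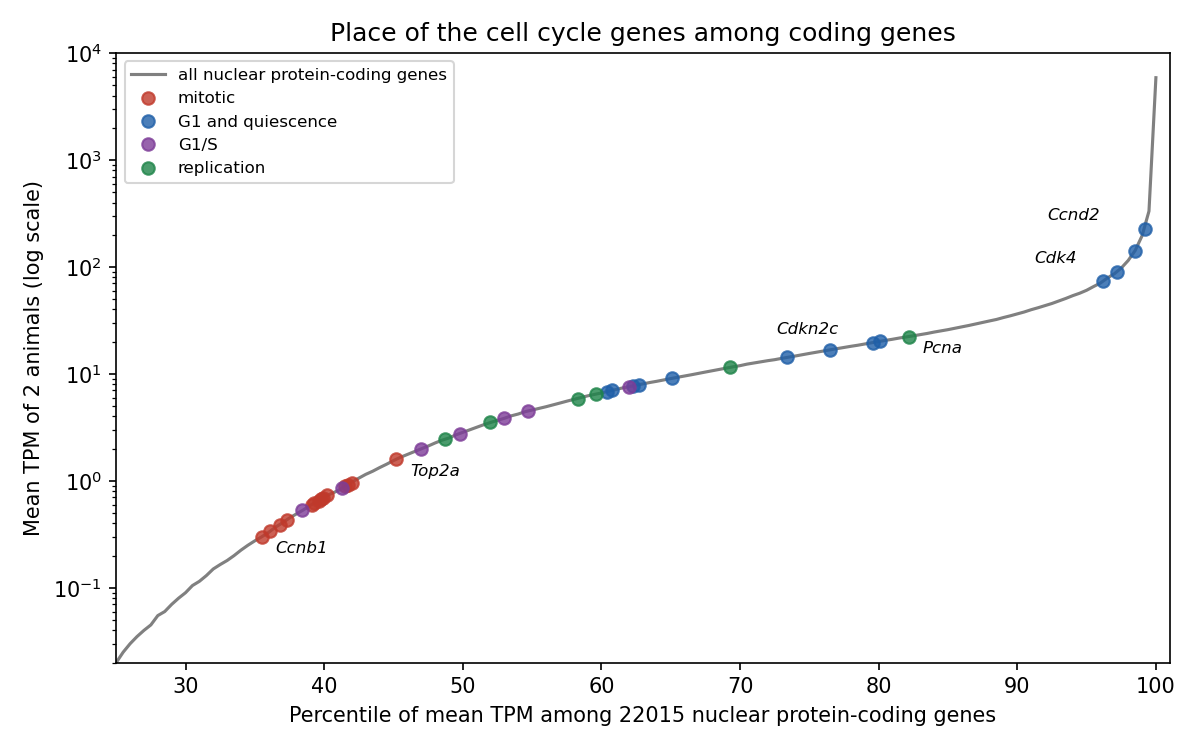
Mean TPM of 2 animals (log axis) against percentile among 22015 nuclear protein-coding genes (line), with each of the 40 genes as a point coloured by role. Mitotic genes occupy the 35.5 to 45.2 percentile and the 3 D cyclins and Cdk4 lie between the 96.2 and the 99.2 percentile.

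The promoters of the mitotic genes were compared for letters known from cell cycle genes. RefSeq promoter windows (GRCm38.p6) of 300 bases, 250 before and 50 after the start, were matched for 33 of the 40 genes and 12 of the 14 mitotic ones. Windows were searched on both strands for TTTGAA, the letters of the cell cycle homology region (CHR) bound by the MuvB core of DREAM, for CCAAT, bound by NF-Y, and for the E2F letters TTTCGCGC, TTTGGCGC and TTTCCCGC. CHR letters occurred in 9 of 12 mitotic windows (75.0%) against 15.2% of 20150 windows of protein-coding genes, and all 9 also held CCAAT, a pairing present in 6.11% of those windows. The 9 genes were Aurka, Ccnb2, Cdc20, Cdk1, Cenpf, Mki67, Plk1, Top2a and Ube2c. A match describes letters in a window and not a bound site.

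The stretches of 5 of the 9 genes are shown as examples of the paired CHR and CCAAT letters. Each reads 5′ to 3′ along the gene with TTTGAA and CCAAT, on either strand, in capitals (TTCAAA and ATTGG are their reverse complements). Positions are chr7:135716462-135716531 for Mki67, chr10:69352912-69352981 for Cdk1, chr11:99024197-99024266 for Top2a, chr9:70421535-70421604 for Ccnb2 and chr4:118437346-118437415 for Cdc20, all on the minus strand of GRCm38.p6.
Mki67: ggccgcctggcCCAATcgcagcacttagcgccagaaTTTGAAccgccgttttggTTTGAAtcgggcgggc
Cdk1: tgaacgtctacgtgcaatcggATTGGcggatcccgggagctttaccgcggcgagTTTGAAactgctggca
Top2a: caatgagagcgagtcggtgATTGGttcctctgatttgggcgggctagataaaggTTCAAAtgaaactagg
Ccnb2: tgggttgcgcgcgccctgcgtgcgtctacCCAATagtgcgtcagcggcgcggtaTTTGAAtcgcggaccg
Cdc20: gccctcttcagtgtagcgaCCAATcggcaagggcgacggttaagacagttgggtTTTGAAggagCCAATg
Mki67 holds the CHR letters 2 times in this stretch and the other 4 genes hold them once. In Ccnb2, Cdk1 and Top2a a further match lies outside the stretch shown.

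The D cyclins, which pair with Cdk4 and Cdk6, were the most abundant of the 40 genes together with Cdk4 itself. Ccnd2 (cyclin D2) had 244 TPM in replicate 1 and 209 in replicate 2, Ccnd3 (cyclin D3) had 149 and 130, and Ccnd1 (cyclin D1) had 78.9 and 67.9. Their order was the same in both glands, and so were their shares of summed D-cyclin TPM, at 51.6 ± 0.252% for Ccnd2, 31.7 ± 0.275% for Ccnd3 and 16.7 ± 0.0232% for Ccnd1 (SD, n = 2). All 3 were lower in replicate 2, with folds of replicate 2 over replicate 1 of 0.863 (95% counting interval 0.848 to 0.878) for Ccnd2, 0.774 (0.749 to 0.799) for Ccnd3 and 0.745 (0.720 to 0.770) for Ccnd1. The 7 adrenal cortex markers moved the same way, at a summed fold of 0.755 (0.753 to 0.757). So did the 7 chromaffin markers, at 0.693 (0.688 to 0.698), of which 6 were lower and Pnmt was furthest apart at 0.197 (0.188 to 0.206). The 7 endothelial markers stood at 0.953 (0.936 to 0.970), and the other marker lists summed higher in replicate 2. The part of any of these cell types in the D-cyclin difference was not tested. All intervals given here cover counting error only and each side is 1 animal.

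The lead of Ccnd2 over Ccnd3 rested on transcripts with no agreed coding sequence. Summed over all transcripts, Ccnd2 exceeded Ccnd3 1.64-fold in replicate 1 and 1.61-fold in replicate 2, but over transcripts with a CCDS identifier (an agreed coding sequence) the ratios were 0.903 and 1.03. The second quantification gave 1.39 and 1.64 over all transcripts and 0.931 and 1.06 over CCDS transcripts. The CCDS transcript Ccnd2-201 took 22298 and 22784 of the gene's 24000 and 24292 counts but only 52.3% and 58.1% of its TPM. The short transcript Ccnd2-207 took 405 and 238 counts and 45.9 and 25.1 TPM. Ccnd1 stayed lowest of the 3 on both scales, with Ccnd3 over Ccnd1 at 1.90 ± 0.0191 over all transcripts and 2.05 ± 0.0468 over CCDS transcripts (SD, n = 2).

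The catalytic partner Cdk4 had 88.7 and 91.5 TPM, and Cdk6, its relative, had 6.74 and 9.13. That 13.2-fold and 10.0-fold excess of Cdk4 also depended on which transcripts were summed, since over CCDS transcripts the ratio of Cdk4 to Cdk6 was 0.967 and 0.989. The second quantification kept Cdk4 ahead, at 3.47 and 3.49 times Cdk6 over CCDS transcripts, so the size of the excess also depended on the quantifier. The CCDS transcript Cdk4-201 took 206 of 1860 counts and 4.24% of the gene's TPM in replicate 1, and 264 of 2151 counts and 4.91% in replicate 2, but 12.9% and 14.6% of TPM in the second quantification. A retained-intron transcript, Cdk4-209, took 37.3% and 35.1% of TPM. Cdk4 overlaps Tspan31 on the other strand, which had 53.9 and 51.3 TPM and 2123 and 2179 counts, and a part of that gene's reads in the Cdk4 value was not tested.

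Of the 40 genes, 17 had a mean CCDS share of at least 90% of their TPM and 5 had a share under 50%, namely Top2a, Cenpf, Bub1, Cdk4 and E2f3. Gene-level TPM from the 2 quantifications lay more than 2-fold apart in replicate 1 for 3 of the 40 genes, Aurkb, Bub1 and Ccne2, and in replicate 2 for 0 of 40. Among 15346 coding genes with at least 0.1 TPM, 3.32% and 2.73% lay that far apart. Ccne2 had the widest gap, with 0.360 TPM against 1.18 in replicate 1.

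**Figure D3:**
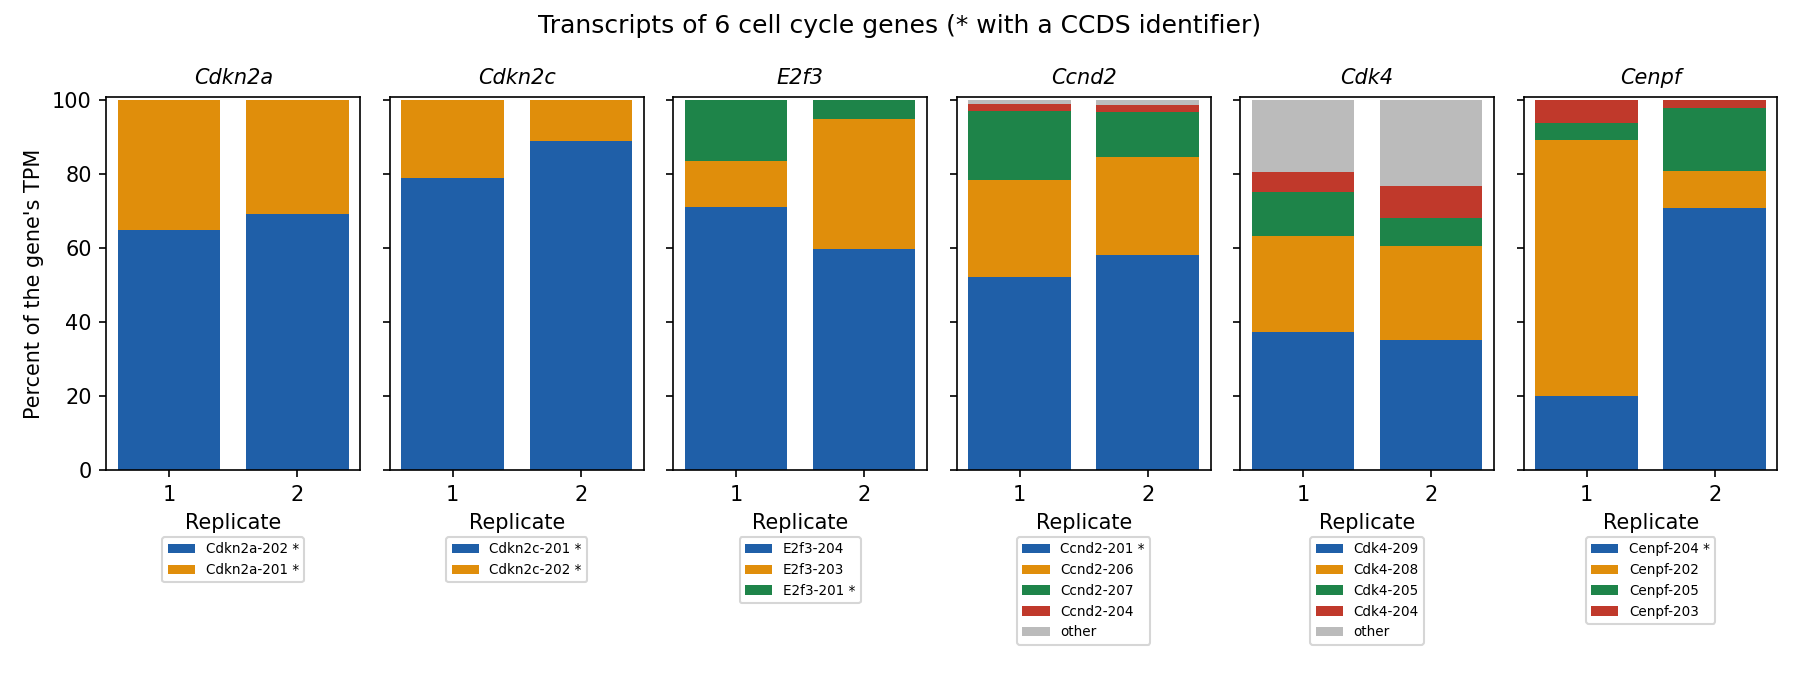
Stacked bars of the percent of gene TPM taken by the largest transcripts (up to 4) of each of 6 cell cycle genes in replicates 1 and 2. Other transcripts are pooled, and an asterisk marks transcripts that carry a CCDS identifier. Cdk4-201 is not among the 4 largest Cdk4 transcripts, and Cenpf-202 takes 69.1% in replicate 1 and 10.1% in replicate 2.

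The INK4 inhibitors of Cdk4 and Cdk6 were all detected. Cdkn2a (chr4:89274471-89294653, minus strand, mm10) had 7.87 TPM in replicate 1 and 6.16 in replicate 2, and Cdkn2b (p15) had 8.16 and 5.49. Cdkn2c (p18) had 11.2 and 28.1, and Cdkn2d (p19) had 6.57 and 8.94. Cdkn2a and Cdkn2b, neighbours on chromosome 4, were the lower pair in replicate 2, while Cdkn2c and Cdkn2d were higher there. Summed D-cyclin TPM exceeded the summed TPM of these 4 genes 14-fold in replicate 1 and 8.37-fold in replicate 2. Over CCDS transcripts the ratios were 10.6 and 6.10. Cdkn2a is counted whole in these sums, with its Arf transcript, which is described below. Cdkn1b (p27), the inhibitor of cyclin-Cdk2, had 12.2 and 16.4 TPM with a fold of 1.16 (1.07 to 1.26).

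Cdkn2a encodes 2 unrelated proteins from separate first exons, and it has 2 annotated transcripts. The quantifier divides the gene's counts between them, so their shares are estimates. Cdkn2a-202, which starts upstream with the first exon of the p53 regulator Arf, took 64.8% of the TPM in replicate 1 and 69.3% in replicate 2, from 114 and 102 counts. Cdkn2a-201, the transcript of p16Ink4a, took 35.2% and 30.7%, from 58.5 and 42.8 counts. The larger share of the Arf transcript was seen in both animals, and in the second quantification it was 74.1% and 87.0%. The sequences before the starts are shown because a separate promoter serves each protein, at chr4:89294654-89294769 for the Arf start and chr4:89282193-89282342 for the p16Ink4a start, minus strand of GRCm38.p6, with E2F letters in capitals.
Cdkn2a Arf start: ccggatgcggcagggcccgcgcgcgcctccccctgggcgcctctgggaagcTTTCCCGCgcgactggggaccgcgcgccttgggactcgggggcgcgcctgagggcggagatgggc
Cdkn2a p16Ink4a start: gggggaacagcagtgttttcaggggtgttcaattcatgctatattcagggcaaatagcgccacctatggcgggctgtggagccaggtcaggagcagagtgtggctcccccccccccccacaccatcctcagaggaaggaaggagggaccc
The first stretch holds TTTCCCGC once and the second holds none of the letters searched. The window of the p16Ink4a start does hold ATTGG, the reverse complement of CCAAT, past the stretch shown, beginning at base 21 counted from the start.

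Cdkn2c was the only one of the 40 genes called higher in replicate 2. A gene was called where its mean was at least 100 counts, the animals lay at least 2-fold apart and the counting interval excluded equality. By this rule 2 of 40 genes were called, Cdkn2c higher and Ccne1 lower, and 27 of the 40 reached the minimum count. Among 12853 nuclear genes with that count 3.54% were called, 2.39% higher and 1.15% lower. With 27 genes the 2 calls are not read as more than this background. Cdkn2c (chr4:109660876-109667189, minus strand, mm10) had 405 and 977 counts, a fold of 2.06 (1.83 to 2.31), just past the 2-fold limit. The next 2 of those with at least 100 counts were Cdkn2b, lower in replicate 2 by 1.62-fold (1.36 to 1.95), and Rb1, higher by 1.61-fold (1.46 to 1.77).

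The Cdkn2c difference lay mainly in the transcript from its downstream start. Cdkn2c-201 had 249 counts and 8.85 TPM in replicate 1 and 755 counts and 24.9 TPM in replicate 2, a fold of 2.58 (2.24 to 2.99). Cdkn2c-202, which begins further upstream, had 156 and 222 counts and 2.34 and 3.11 TPM, a fold of 1.21 (0.984 to 1.5). Both transcripts carry a CCDS identifier, and the intervals of the 2 folds do not overlap, although counts are divided between transcripts by the quantifier. The second quantification gave 7.24 and 21.7 TPM for Cdkn2c-201 and 2.13 and 2.86 for Cdkn2c-202. All 7 adipocyte markers were called higher in replicate 2, at a summed fold of 7.79 (7.62 to 7.97), as were 5 of 6 brown adipocyte markers, and their part in the Cdkn2c difference was not tested. The bases before the downstream start, chr4:109665373-109665522 on the minus strand of GRCm38.p6 and within an intron of Cdkn2c-202, are shown because that start carried the difference.
Cdkn2c downstream start: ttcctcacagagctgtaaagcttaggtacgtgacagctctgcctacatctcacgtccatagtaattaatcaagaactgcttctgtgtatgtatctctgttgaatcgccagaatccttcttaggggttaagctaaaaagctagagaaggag
None of the CHR, CCAAT or E2F letters searched occurs in this stretch, which says nothing of any factor.

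The pocket proteins, which hold E2F factors until they are phosphorylated, were led by the quiescence member. Rbl2 (p130) had 18.7 and 21.6 TPM, Rb1 had 6.91 and 11.3, and Rbl1 (p107), the member made mostly in cycling cells, had 1.83 and 2.12. Rbl2 exceeded Rbl1 10.2-fold in each animal. It exceeded Rb1 2.71-fold in replicate 1 and 1.91-fold in replicate 2. All 3 had higher scaled counts in replicate 2, with Rb1 furthest apart. Rb1 overlaps Rcbtb2 (551 and 1014 counts) and Lpar6 (162 and 336 counts) on the other strand, both also with more counts in replicate 2. A part of their reads in the Rb1 value was not tested.

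Of the 4 E2F factors, the repressor was the highest. E2f4, which works with Rbl2, had 17.9 and 15.6 TPM. Of the activators, E2f1 had 4.47 and 4.52 TPM, E2f3 had 3.96 and 3.75, and E2f2 had 0.760 and 0.960. E2f4 exceeded E2f1 4.01-fold and 3.46-fold. E2f3 came mainly from transcripts with the downstream start, since E2f3-201, the transcript from the upstream start of the E2f3a form, took 16.5% of TPM and 91.6 counts in replicate 1 and 5.14% and 29.0 counts in replicate 2. Its fold of 0.269 (0.171 to 0.412) compares with 2.46 (1.83 to 3.34) for E2f3-203 and 0.727 (0.622 to 0.850) for E2f3-204. These latter 2 share a start, and how the division of reads between them bears on their folds was not tested.

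Cyclin E activates Cdk2 at the G1/S transition. Ccne1 (cyclin E1, chr7:38097984-38107534, minus strand, mm10) had 4.13 TPM and 193 counts in replicate 1 against 1.41 TPM and 72 counts in replicate 2, so it was lower in replicate 2 by 3.14-fold (2.39 to 4.18). This was the widest difference between the animals among the 27 genes with at least 100 counts, and the coding transcript Ccne1-201 carried it with 183 and 68.8 counts. Ccne2 (cyclin E2), with 28 and 31 counts and 0.360 and 0.700 TPM, had a fold of 0.944 (0.548 to 1.63). Ccne2 overlaps Ints8 on the other strand, which had 1184 and 1191 counts, and a part of those reads in the Ccne2 value was not tested. Cdk2, the partner kinase, had 6.54 and 8.70 TPM and a fold of 1.15 (1.01 to 1.31). Cyclin E1 and its kinase thus lay on opposite sides of equality.

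All 6 replication genes were detected, at levels between the mitotic and the D-cyclin genes. Pcna, the sliding clamp of DNA polymerase, had 21.8 and 22.9 TPM and stood 29.0-fold and 21-fold above Mki67. Of the MCM helicase subunits, Mcm2 had 10.3 and 12.7 TPM, Mcm3 had 6.63 and 5.14, Mcm5 had 3.40 and 3.65, and Mcm6 had 6.01 and 6.90. Rrm2, the subunit of ribonucleotide reductase that is made in S phase, was the lowest with 2.20 and 2.68. For 6 of 6 genes the counting interval of the fold held equality, and the folds ran from 0.928 to 1.07. Among 18181 nuclear genes averaging 10 counts or more, the interval lay above equality for 24.9% and below it for 24.9%.

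E2F letters occurred in the promoter windows of 3 of these 6 genes, Mcm3, Mcm5 and Mcm6, and in 4 of 8 G1/S windows, against 2.45% of windows of protein-coding genes. All 6 replication windows held CCAAT, against 37.8%. The stretches of 2 are shown with E2F and CCAAT letters in capitals, Mcm5 at chr8:75109324-75109393 on the plus strand and Mcm6 at chr1:128359719-128359788 on the minus strand of GRCm38.p6.
Mcm5: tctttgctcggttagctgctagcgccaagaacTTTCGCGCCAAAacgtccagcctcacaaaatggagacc
Mcm6: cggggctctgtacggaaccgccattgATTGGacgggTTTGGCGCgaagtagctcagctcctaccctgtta
The capitals in Mcm5 join 2 overlapping matches on opposite strands. In Mcm6 an E2F match follows the reverse complement of CCAAT, and 2 more matches lie upstream of the stretch shown.

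Between the animals, low mitotic counts leaned towards replicate 2. With TMM scaling, 13 of 14 mitotic genes had a log2 ratio above 0 (CPM + 1, replicate 2 over replicate 1), with a median of 0.29, where 50.2% of 18181 nuclear genes that averaged 10 counts or more did and the median was 0.00. Protein-coding genes of 10 to 300 counts, a range that holds all 14 mitotic genes, were above 0 in 60.7% of cases. The remaining gene, Cdc20, sat at -0.01 and lay above 0 when total counts or ERCC spike-ins set the scale. Counting intervals lay above equality for 5 mitotic genes, Aurka, Aurkb, Cenpf, Mki67 and Top2a, and below it for none, where 24.9% of nuclear genes lay above and 24.9% below. Summed, mitotic counts were 589 and 978, a fold of 1.42 (1.28 to 1.57). Leaving out Mki67 gave 1.46 (1.29 to 1.67). The 50 mitotic genes outside the 40 had a summed fold of 1.05 (1.02 to 1.09) and a median log2 ratio of 0.10, beside 0.09 for coding genes of 10 to 300 counts. The difference between the 2 mitotic lists was not tested.

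**Figure D4:**
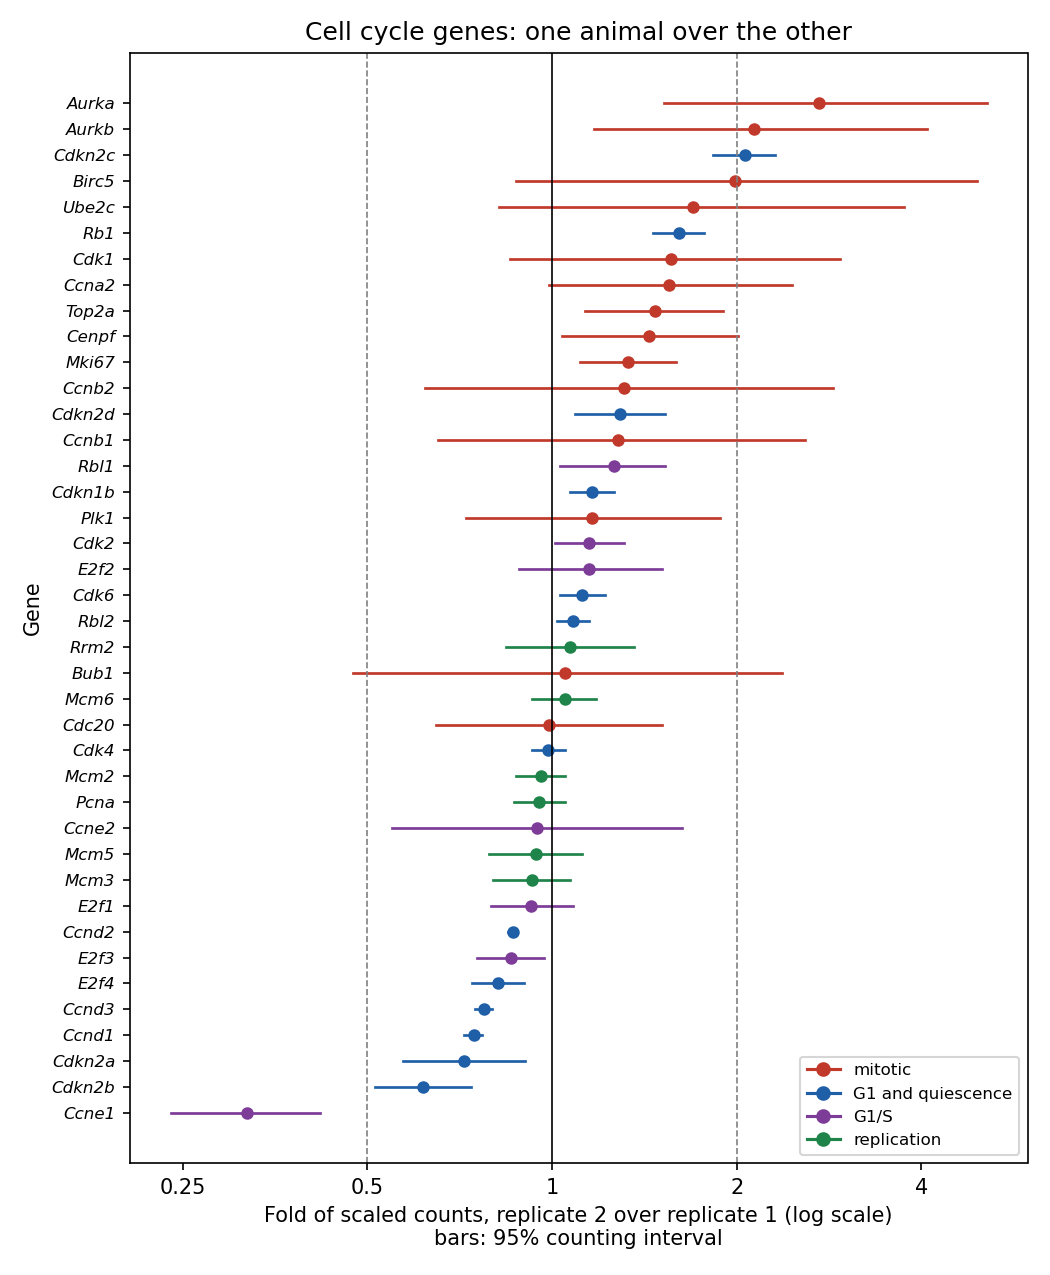
Fold of TMM-scaled counts of replicate 2 over replicate 1 on a log axis for each of the 40 genes, with 95% counting intervals as bars, colours for the 4 roles and dashed lines at 0.5 and 2. Cdkn2c and Ccne1 lie past the 2-fold lines with intervals clear of 1, and Aurka and Aurkb do so at mean counts under 100.

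Aurka, with 16 and 51 counts, and Aurkb, with 16 and 40, had folds of 2.72 (1.52 to 5.11) and 2.13 (1.17 to 4.08) but fell short of the minimum count for a call. Some other gene groups moved in the same direction as the mitotic sum. Summed counts of 8 macrophage markers stood at a fold of 1.45 (1.41 to 1.49), of 7 fibroblast and capsule markers at 1.59 (1.56 to 1.63) and of 7 erythroid markers at 1.51 (1.48 to 1.53). The 8 lymphocyte markers summed to 1.60 and 2.89 TPM and none was detected. Adipocyte markers, at 7.79, and brown adipocyte markers, at 22.4, moved furthest in that direction. Sums of endothelial markers, at 0.953, cortex markers, at 0.755, and chromaffin markers, at 0.693, moved the other way. The part of any of these cell types in the mitotic difference was not tested.

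**Figure D5:**
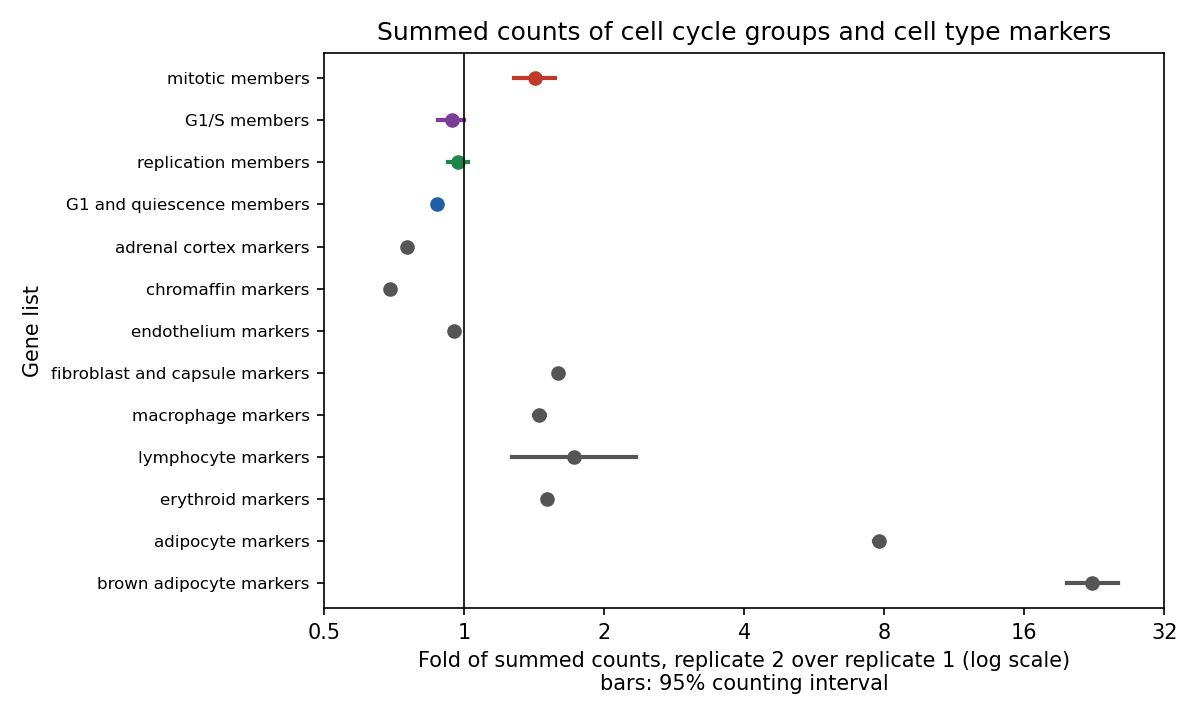
Fold of summed counts of replicate 2 over replicate 1 on a log axis, with 95% counting intervals, for the 4 role groups of cell cycle genes and 9 lists of cell type markers. The mitotic sum lies at 1.42, the G1 and quiescence sum at 0.876, and the adipocyte markers at 7.79.

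Lists of other genes of the same pathways were read beside the 40. Of 50 further mitotic genes 15 were detected (30.0%), with medians of 0.795 and 0.755 TPM. The highest of them were Bub3 of the spindle checkpoint at 28.9 TPM in replicate 1 and 26.5 in replicate 2, Pttg1 (securin) at 14.7 and 22.1, and the condensin subunit Ncapd2 at 9.78 and 12.4. Of 40 further replication genes 31 were detected, led by Rpa1, which coats single-stranded DNA, at 22.2 and 26.2 TPM, and the clamp loader subunits Rfc2 at 19.8 and 18.3 and Rfc1 at 14.2 and 20.4. As among the 40 genes, the mitotic list had a lower median than the replication list, at 2.86 and 3.79 TPM.

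Further G1 cyclins, kinases and inhibitors were detected in 17 of 17 cases, and the inhibitor Cdkn1c (p57) led them at 90.2 and 78.3 TPM, above every INK4 gene and Cdkn1b in both animals. The kinase chaperone Cdc37 had 60.2 TPM in each gland and cyclin I, Ccni, had 49.1 and 67.0. Of 13 further E2F and DREAM genes 11 were detected, with Rbbp4 at 53.1 and 61.9 TPM, Tfdp2 at 32.9 and 43.4 and Lin37 at 30.1 and 23.8 the highest. Of 17 genes of the anaphase-promoting complex 16 were detected, with Anapc13 at 113 and 106 TPM, Anapc5 at 68.6 and 82.4 and Ube2s at 49.3 and 40.7 the highest. No gene of these 5 lists was called between the animals, where 3.54% of 12853 nuclear genes were. In the order given, 14, 26, 17, 11 and 16 genes of the lists reached the minimum of 100 counts. The absence of calls is not read as a difference from that background. CHR letters occurred in 67.4% of the 46 promoter windows of the further mitotic genes.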

How the data were processed

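Total RNA-seq of the adrenal gland of 2 mice was analysed. The deposited gene and transcript tables hold expected counts and TPM under RSEM's column names, and transcript tables also give the percent of gene TPM, per the file headers. A second deposited transcript table holds estimated counts and TPM under kallisto's column names. Per the text accompanying the tables, they use mm10 and GENCODE M21, and each library was quantified alone. Aligner and quantifier versions were not given in the sources used here. How reads of the CAST/EiJ allele aligned to this reference was not tested. Each library started from 300 ng of RNA, per the labels.

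TPM were used as deposited, with detection at 1 TPM in both libraries. Expected counts (rounded for factors and folds) were scaled by TMM in edgeR 4.0.16 under R 4.3.3, over genes averaging 10 counts or more; DESeq2 1.42.0 size factors, totals and ERCC spike-ins were alternatives. Folds have exact conditional binomial 95% intervals, which cover counting error only, and log2 ratios are of CPM + 1. A count of 0 allows 3 counts, or 0.100 and 0.0883 CPM. Calls were run on simulated counts that held counting error only, which cannot test them against variation between animals. Calls needed a mean of 100 counts, 2-fold and an interval without equality, over nuclear genes. No p-value was computed with 1 animal a side.

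All 40 members are accounted for. The rule for named genes gives both libraries' values for the highest and lowest of each role, for D and mitotic cyclins, inhibitors and pocket proteins, and for the 3 highest of each of 5 pathway lists; the other genes and transcripts were chosen after their values were seen. Of 242 entries in 18 lists, 241 matched by symbol. The members and lists were chosen with earlier results of these data known. Endothelial markers, 7 of 7 detected, summed to 345 and 352 TPM, and 6 brown adipocyte markers to 27.2 and 284. One item of the marker lists is not reported here.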

Additional observations from a re-analysis of the deposited data

How the results depend on the processing

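Of 67 values under another setting, 48 stayed the same and 19 moved. Levels, ratios and transcript shares were the same if within the SD of the 2 animals. Counts of genes were the same if within 1.5-fold, and the mitotic sum if within its counting interval. Only the log2 ratios of Ccne1 and Cdkn2c were checked for a change of call or direction, and neither changed. The number of mitotic genes detected was 1 at 1 TPM, 7 at 0.5 TPM, 0 at 2 TPM, 9 after TPM were rescaled over nuclear protein-coding genes and 0 over CCDS transcripts, and 1 to 3 when either animal was left out. The 13 G1 and quiescence genes were detected under each of these settings. The ratio of G1 and quiescence to mitotic levels, 21.3 by median TPM, was 31.7 by geometric mean, 67.7 by sum, 43.5 by CPM (which does not divide by length), 18.1 with the second quantification, 27.3 over CCDS transcripts and 12.4 with the G1/S genes added to the G1 and quiescence group (20 genes). It was 19.2 to 23.4 when either animal was left out. The median of the 40 members, 3.87 TPM, was 3.39 with the second quantification and 3.20 over CCDS transcripts. Calls between the animals rose from 2 to 4 with a minimum of 10 counts (8.67% of 18181 nuclear genes called) or with none (3.97%), adding Aurka and Aurkb, and to 4 at 1.5-fold, adding Cdkn2b and Rb1, where 10.1% of nuclear genes were called. With DESeq2 size factors, total counts, ERCC totals or kallisto counts Cdkn2c and Ccne1 were the 2 called. Under the 4 scalings the median log2 ratio of all genes ran from 0.00 to 0.07, and the 3 D cyclins were lower in replicate 2 under each. The CCDS settings and those of the mitotic sum, which ran from 1.32 to 1.5, were chosen after seeing the data, as were the kallisto settings for transcripts, under which Cdk4-201 took 13.7% of TPM in place of 4.58%. No paired analysis was possible because both animals belong to 1 group, so no groups share replicate numbers for a block. A mitotic gene with 9 to 60 counts has a wide interval, and in that range only the intervals of Aurka and Aurkb excluded equality. Small differences between the animals for most single mitotic genes were therefore not detectable at this depth.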
